A study of Mus musculus with 18 samples.

Results

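The comparison described here set mouse macrophages that had been kept in plasma from mice lacking both ApoE and Stab1 against macrophages kept in plasma from wild-type mice. It rests on 7 of the series' 18 arrays, chosen by their titles: 3 arrays for the doubly deficient plasma, called AS1 in the labels, and 4 for wild-type plasma, called WT. The cells were bone marrow derived macrophages, that is, marrow cells flushed from mouse femurs and grown in medium with 10% fetal calf serum and 30 ng/ml of the macrophage growth factor M-CSF. On day 4 the serum medium gave way to medium with 10% mouse plasma, and RNA was taken 48 hours later, on day 6. The plasma donors of every group carried the C57BL/6J name and had eaten a Western diet for 8 weeks. The remaining 11 arrays used plasma of ApoE-KO mice (5 arrays, ApoE) and of ApoE-Stab2-KO mice (6 arrays, AS2).

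AS1 and WT plasma therefore came from donors that differed in both deleted genes, and the ApoE arrays are given beside the results because their donors lacked ApoE alone. The labels give a genotype for the plasma donors and none for the macrophages, do not say whether plasma was pooled over mice, and do not say whether M-CSF was present in the plasma medium. Nothing in them states that replicates were separate cultures, so every p-value here reflects only how arrays of a group differ, and that spread can be a technical one.

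Apolipoprotein E is the ligand by which the liver clears remnant lipoproteins, and mice without it carry large amounts of these particles in their plasma, more so on a fat-rich diet. Stabilin-1 and Stabilin-2, encoded by Stab1 and Stab2, are scavenger receptors of sinusoidal endothelium that remove modified lipoproteins, hyaluronan and many other ligands from the blood; Stabilin-1 is also made by macrophages. Macrophages respond to the lipids, growth factors and danger signals of the medium they are in, through sterol-sensing factors (SREBP2 and LXR), the oxidant-sensing factor NRF2, Toll-like receptors and the M-CSF receptor, and young marrow cultures still hold dividing precursors of other myeloid lineages.

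Among the 36 pathway lists counted here, that of mitosis had the most members higher with AS1 plasma, and those of NRF2 targets, C-type lectins and cholesterol synthesis had the most lower. Promoters of 2 mitosis genes, 1 gene of the ATF4 stress response and 1 NRF2 target are shown first, as examples of the letters counted in the promoters of those lists. Each is the stretch from 250 bases before to 50 bases after the start of a gene named below, read 5′ to 3′ on the gene's own strand from RefSeq on build GRCm38.p6, and each was picked among genes that hold the searched letters. In the promoters of Ccnb2 (chr9:70421505-70421804, minus strand) and Mki67 (chr7:135716330-135716629, minus strand), capitals mark TTTGAA, the cell cycle homology region read by the repressor complex DREAM, and CCAAT, the box bound by NF-Y. In that of Asns (chr6:7693160-7693459, minus strand) they mark TGATGNAA, which ATF4 binds with a C/EBP partner. In that of Gclm (chr3:122245307-122245606, plus strand) they mark TGACNNNGC, the core of the antioxidant response element that NRF2 binds, here as its reverse complement. Both strands were searched in each case.
Ccnb2: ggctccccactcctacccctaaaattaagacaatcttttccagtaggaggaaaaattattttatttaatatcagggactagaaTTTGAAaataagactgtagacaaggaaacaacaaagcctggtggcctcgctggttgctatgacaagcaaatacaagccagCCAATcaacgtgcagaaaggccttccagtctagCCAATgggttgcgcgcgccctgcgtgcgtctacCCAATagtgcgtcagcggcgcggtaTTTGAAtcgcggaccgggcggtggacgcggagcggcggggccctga
Mki67: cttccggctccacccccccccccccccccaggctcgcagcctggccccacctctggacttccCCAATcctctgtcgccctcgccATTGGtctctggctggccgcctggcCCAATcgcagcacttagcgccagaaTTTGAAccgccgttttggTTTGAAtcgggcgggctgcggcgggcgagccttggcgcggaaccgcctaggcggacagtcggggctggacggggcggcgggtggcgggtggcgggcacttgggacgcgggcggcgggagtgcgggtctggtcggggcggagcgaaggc
Asns: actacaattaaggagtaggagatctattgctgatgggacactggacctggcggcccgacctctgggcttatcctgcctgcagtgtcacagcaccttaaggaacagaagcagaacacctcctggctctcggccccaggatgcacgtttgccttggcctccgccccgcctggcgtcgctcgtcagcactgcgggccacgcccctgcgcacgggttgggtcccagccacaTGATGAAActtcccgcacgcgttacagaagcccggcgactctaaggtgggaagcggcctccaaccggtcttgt
Gclm: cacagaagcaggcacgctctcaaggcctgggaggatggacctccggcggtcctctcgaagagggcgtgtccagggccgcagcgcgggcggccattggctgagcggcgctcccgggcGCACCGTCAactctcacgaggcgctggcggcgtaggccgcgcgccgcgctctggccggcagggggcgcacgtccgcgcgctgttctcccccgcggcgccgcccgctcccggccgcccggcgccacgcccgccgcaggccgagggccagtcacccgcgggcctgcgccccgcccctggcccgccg

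Among the genes of the mitosis list, 31 of 34 had a RefSeq promoter in the table used, with 34 promoters in all. TTTGAA was present in 27 of these promoters (79.41%), against 17.89% of all 32851 promoters of the same length. CCAAT was present in 26 (76.47%), against 37.41%, and both together in 23 (67.65%), against 6.95%. In promoters of the DNA replication list, TTTGAA was found in 3 of 32 (9.38%) and CCAAT in 17 (53.12%). TGATGNAA was present in 12 of 45 promoters (26.67%) of the ATF4, amino acid transporter and serine synthesis lists together, for which 35 of 42 genes matched, against 3.97% of all promoters. TGACNNNGC, searched after the fall of the NRF2 list had been seen, was present in 6 of 17 promoters (35.29%) of that list, for which 13 of 17 genes matched, against 12.39%. The same letters were present in 12 of the 45 ATF4, transporter and serine promoters (26.67%) and in 7 of the 34 mitosis promoters (20.59%). These matches describe letters in a fixed window and are not measured sites of binding.

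The arrays gave 24705 rows with 1 gene symbol each, in log2 units, so that a difference of 1 is a doubling. With AS1 plasma 1196 rows were higher (4.84% of those tested) and 1147 were lower (4.64%) at an adjusted p under 0.05, by limma with Benjamini-Hochberg adjustment, two-sided. Of these, 231 were at least 2-fold higher and 68 at least 2-fold lower. At a 4-fold difference the counts were 38 higher and 4 lower. The median difference over all rows was -0.0044. All 3 AS1 arrays lay above all 4 WT arrays in 8.77% of rows and below them in 9.38%. Correlations between arrays ran from 0.994 to 0.996 within WT, from 0.995 to 0.996 within AS1, and from 0.987 to 0.990 between a WT and an AS1 array.

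The label of the cells was checked against macrophage markers, which were abundant in both groups. Csf1r, Adgre1, Cd68 and Mertk, which encode the M-CSF receptor, an adhesion receptor, macrosialin and an efferocytosis receptor, differed by -0.04, -0.02, 0.07 and 0.03. The mean level of the 8 measured macrophage markers was 11.13 to 11.16 on the WT arrays and 10.98 to 11.15 on the AS1 arrays. Of these markers 1, Fcgr1, passed the threshold and was lower with AS1 plasma, against 4.64% of all rows lower. The deleted genes of the donors are no check of the labels here, since the macrophages carry no stated deletion. Apoe differed by 0.11 ± 0.09 (SE; adjusted p = 0.556, limma) and Stab1 by -0.05 ± 0.06 (adjusted p = 0.735).

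**Figure D1:**
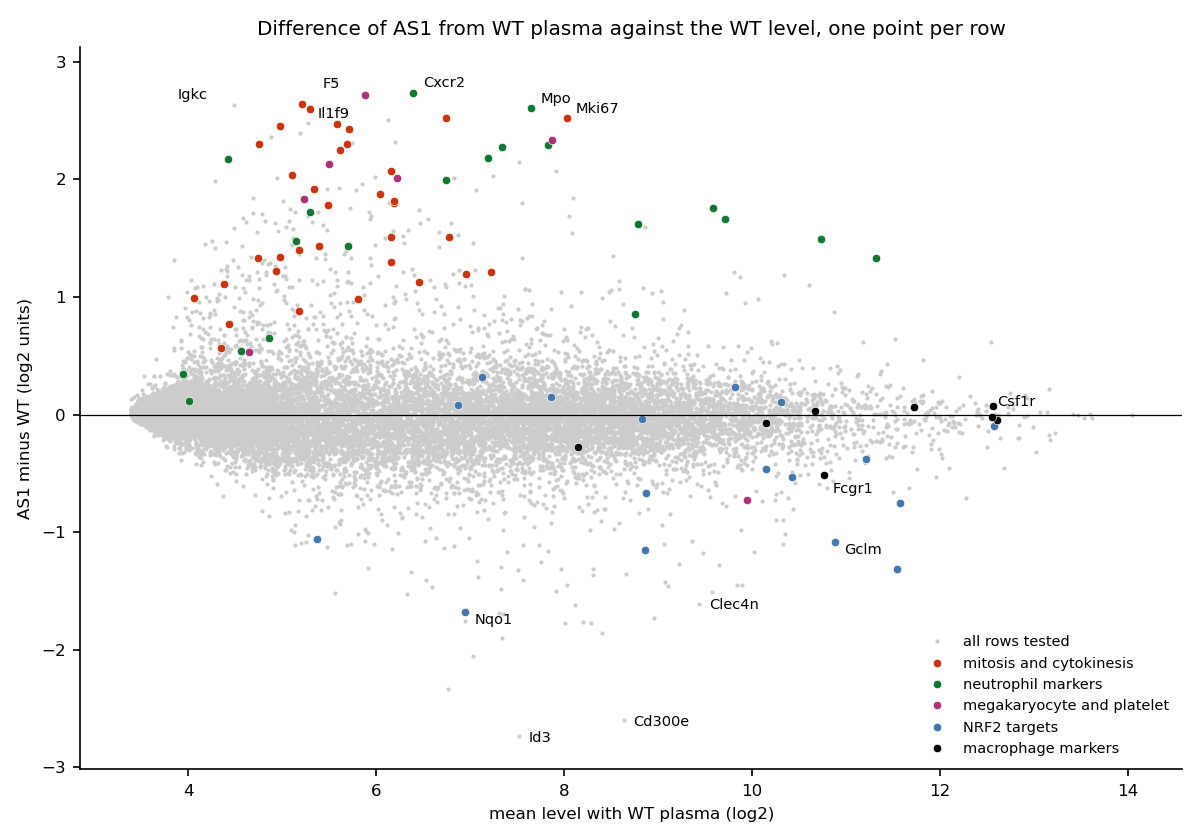
Difference of AS1 from WT plasma (vertical axis, log2 units) against the mean level with WT plasma (horizontal axis, log2), with 1 point for each of the 24705 rows and coloured points for members of 5 lists. Mitosis genes and neutrophil markers lie above 0, macrophage markers lie near 0 except Fcgr1, and Nqo1 and Gclm lie among the NRF2 targets below it.

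Genes of DNA replication, mitosis and cytokinesis were higher with AS1 plasma. Each of the 34 measured genes of mitosis and cytokinesis rose, by 0.56 to 2.65 with a median of 1.65, against 4.84% of all rows higher. Of 33 genes of DNA replication and nucleotide supply 20 rose and 1 fell, with a median of 0.42, and of 22 G1 cyclins, cyclin-dependent kinases, their inhibitors and E2F factors 7 rose and none fell. The count of 20 replication genes ran from 14 to 21 with 1 array left out.

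Ccnb2, a B-type cyclin that drives entry into mitosis, read 5.29, 4.98, 5.19 and 5.39 on the WT arrays and 7.94, 7.94 and 7.70 on the AS1 arrays, in the order of the replicate numbers. The groups were far apart, and the AS1 arrays were 6.26-fold higher on average (difference 2.65 ± 0.12, SE; adjusted p = 4.51e-10, limma). Mki67, whose product coats the chromosomes of dividing cells, read 7.96, 7.92, 8.09 and 8.14 on the WT arrays and 10.51, 10.55 and 10.59 on the AS1 arrays. No AS1 array came near a WT array, with a difference of 2.52 ± 0.08 (adjusted p = 5.42e-12). Ccna2, the cyclin of S phase and G2, had the largest difference of the genes named by size, 2.85 ± 0.14 (adjusted p = 6.42e-10). Its levels were 5.42, 5.15, 5.70 and 5.98 on the WT arrays and 8.33, 8.50 and 8.41 on the AS1 arrays.

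Other mitotic genes with differences above 2 were Anln, an actin-binding protein of the cleavage furrow (2.60 ± 0.13), Top2a, the topoisomerase that untangles chromosomes (2.52 ± 0.13), Kif11, the motor that separates the spindle poles (2.43 ± 0.12), and Prc1, which bundles the central spindle (2.46 ± 0.13). Ect2, which switches on RhoA at the furrow, differed by 2.25 ± 0.10. Prr11, a further gene of mitotic cells, differed by 2.60 ± 0.17. The 3 AS1 arrays were above all WT arrays for each of the 34 mitosis genes.

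In the replication list both ribonucleotide reductase subunits rose, which make the deoxynucleotides for DNA synthesis. Rrm2 read 6.11, 5.88, 6.27 and 6.29 on the WT arrays and 7.69, 7.92 and 8.20 on the AS1 arrays, a difference of 1.80 ± 0.16 (adjusted p = 7.49e-07), and the groups did not overlap. Rrm1 differed by 0.92 ± 0.08 and Mcm7, part of the replicative helicase, by 0.91 ± 0.09. The member that fell was Rfc3, a subunit of the clamp loader, with -0.42 ± 0.09 (adjusted p = 0.00407). Among the G1 and E2F genes the atypical repressors E2f8 and E2f7 rose by 1.46 and 0.98 and the activator E2f2 by 0.93. Cdkn2c, an inhibitor of CDK4 and CDK6, also rose, by 0.69. Myc and Cdkn1a differed by 0.18 (adjusted p = 0.464) and -0.05 (adjusted p = 0.82).

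Plasma lacking ApoE alone is set beside the values of the mitosis and replication lists. The mean level of the mitosis list was 5.61 to 5.65 on the WT arrays, 6.93 to 7.29 on the ApoE arrays, 7.27 to 7.40 on the AS1 arrays and 7.89 to 8.13 on the AS2 arrays. Tested against ApoE plasma, where 7.74% of all rows were higher with AS1 and 8.8% lower, 8 of the 34 genes were higher and none lower with AS1. Against AS2 plasma, where 10.6% of all rows were higher and 11.5% lower with AS1, 28 of the 34 were lower and none higher. For Mki67 the ApoE mean was 10.16 (adjusted p = 0.00151 against AS1) and the AS2 mean 10.66 (adjusted p = 0.381). The mean level of the replication list was 6.02 to 6.19 on the WT arrays, 6.58 to 6.74 on ApoE, 6.64 to 6.74 on AS1 and 7.29 to 7.54 on AS2. Against ApoE plasma 5 of its 33 genes were higher and 2 lower with AS1, and against AS2 plasma 28 were lower and none higher. The shares over all rows are those given above.

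**Figure D2:**
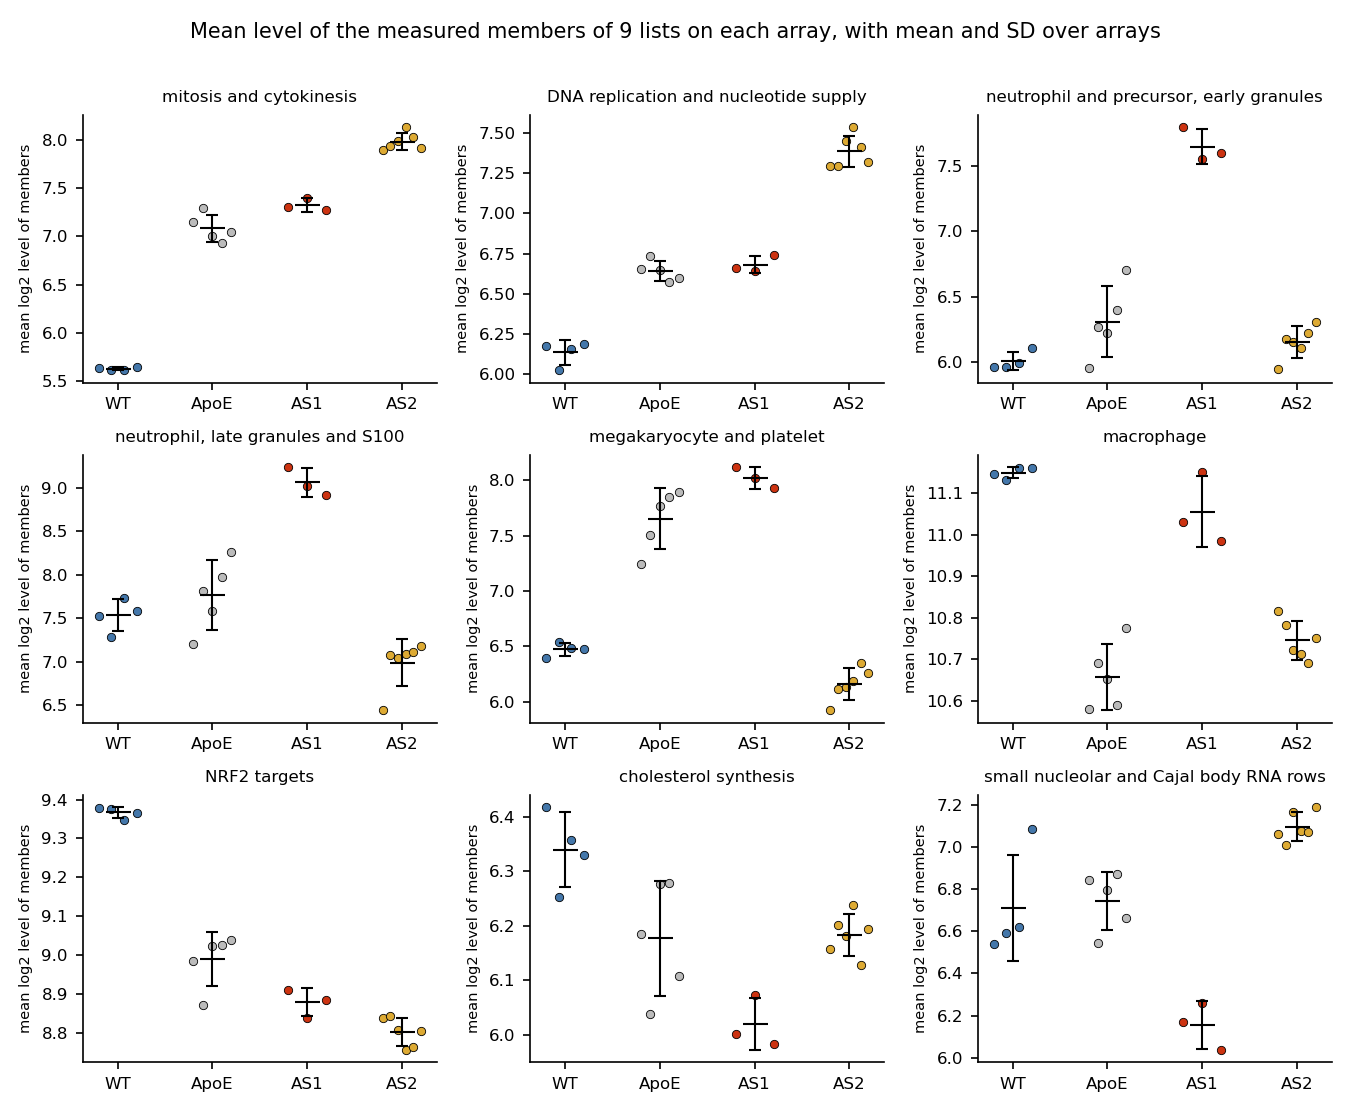
Mean log2 level of the measured members of 9 lists (vertical axes) on each array (points) by plasma (horizontal axes), with the mean and SD over arrays as bars. AS1 arrays lie above WT for mitosis, for both neutrophil lists and for the megakaryocyte list, and below WT for NRF2 targets, cholesterol synthesis and the small nucleolar RNA rows.

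Markers of neutrophils and their precursors rose together with AS1 plasma, with which 4.84% of all rows were higher. All 7 measured genes of the early granules and their regulators rose, with a median difference of 1.73, and 11 of 13 genes of later granules, S100 proteins and receptors rose, with a median of 1.62. In these bulk cultures more cells of a type and more RNA per cell cannot be told apart. The mean level of the early list was 5.96 to 6.11 on WT arrays and 7.55 to 7.79 on AS1 arrays, and that of the late list was 7.29 to 7.74 and 8.92 to 9.24. Their part in the rise of the mitosis genes was not tested.

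Mpo, the myeloperoxidase of the first granules to form in the lineage, read 7.45, 7.72, 7.66 and 7.79 on the WT arrays and 10.39, 10.02 and 10.37 on the AS1 arrays. Every AS1 array stood above every WT array, with a difference of 2.60 ± 0.21 (adjusted p = 1.92e-07, limma). The serine proteases packed with it also rose: Elane, neutrophil elastase, by 2.19 ± 0.21, Prtn3, proteinase 3, by 2.28 ± 0.29 and Ctsg, cathepsin G, by 1.73 ± 0.15. Smaller rises were seen for the transcription factors of this stage, Gfi1 (0.54 ± 0.08) and Cebpe (0.65 ± 0.10).

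Of the later genes, Cxcr2, the receptor by which neutrophils follow chemokines, had the largest difference. It read 6.44, 6.15, 6.53 and 6.48 on the WT arrays and 9.48, 8.92 and 9.01 on the AS1 arrays, and the groups were well separated (2.74 ± 0.31, adjusted p = 1.22e-05). S100a8, a subunit of calprotectin, read 9.45, 9.49, 9.84 and 9.56 on the WT arrays and 11.45, 11.25 and 11.33 on the AS1 arrays. Its groups did not overlap, with a difference of 1.75 ± 0.23 (adjusted p = 4.37e-05). Ltf, lactoferrin, rose by 1.67 ± 0.23, Camp, cathelicidin, by 1.43 ± 0.35 (a call lost without AS1 replicate 1) and Lcn2, the siderophore-binding lipocalin 2, by 1.34 ± 0.24. The members that did not pass were Ly6g (0.35 ± 0.16, adjusted p = 0.215) and Stfa1 (0.12 ± 0.09, adjusted p = 0.525).

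Neutrophil markers were also higher with AS1 than with either of the other knockout plasmas. Of the 7 early genes 7 were higher against ApoE and 7 against AS2, and of the 13 late genes 12 were higher in each of these comparisons. Over all rows 7.74% were higher with AS1 against ApoE and 10.6% against AS2. The Mpo means were 8.47 with ApoE plasma and 8.41 with AS2 plasma (adjusted p = 8.55e-06 and 1.5e-06 against AS1). These comparisons share the 3 AS1 arrays, so they are not independent of one another.

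Platelet and megakaryocyte genes formed a further group, to be read against 4.84% of all rows higher and 4.64% lower. Of 7 measured, 6 rose and Pf4 fell, with a median of 2.01, and their mean level was 6.40 to 6.54 on WT arrays and 7.93 to 8.12 on AS1 arrays. F5, coagulation factor V, read 5.75, 6.00, 5.67 and 6.10 on the WT arrays and 8.69, 8.54 and 8.57 on the AS1 arrays, and the arrays of the groups lay far apart (2.72 ± 0.15, adjusted p = 2.24e-09, limma). Itga2b, the platelet integrin αIIb, read 5.33, 5.43, 5.54 and 5.70 on the WT arrays and 7.56, 7.83 and 7.49 on the AS1 arrays, again without overlap (2.13 ± 0.18, adjusted p = 3.37e-07). Its partner Itgb3, the β3 chain, rose by 2.51 ± 0.20. Ppbp, the platelet basic chemokine, rose by 2.34 ± 0.31 and Gp9, part of the receptor for von Willebrand factor, by 2.01 ± 0.23. Vwf, von Willebrand factor itself, rose by 1.83 ± 0.12. Pf4, platelet factor 4, differed by -0.72 ± 0.17 (adjusted p = 0.0103), a call that was lost without AS1 replicate 2. The F5 mean was 8.92 with ApoE plasma (adjusted p = 0.164 against AS1) and 5.82 with AS2 plasma (adjusted p = 4.44e-10). Of the 7 genes, 3 were higher and none lower with AS1 than with ApoE, against 7.74% of all rows higher and 8.8% lower. All 7 were higher with AS1 than with AS2, against 10.6% of all rows. Their mean level was 7.25 to 7.90 on ApoE arrays and 5.92 to 6.35 on AS2 arrays.

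Markers of several other marrow lineages were higher in part, against 4.84% of all rows higher. Of 11 genes of mast cells, basophils and eosinophils 5 rose, among them Hdc, the enzyme that makes histamine (2.31 ± 0.21), Cpa3, the mast cell carboxypeptidase (1.99 ± 0.28), and Mcpt8, a basophil protease (1.14 ± 0.14), while Fcer1a, the chain of the IgE receptor that binds IgE, read 3.50 and 3.51 on average in WT and AS1. Of 8 dendritic cell genes 5 rose, with Siglech, of plasmacytoid cells, at 1.0 ± 0.10 and Clec9a, of cross-presenting cells, at 0.80 ± 0.09. Of 8 progenitor genes 2 rose, Myb, a transcription factor of immature cells (1.69 ± 0.17), and Kit, the stem cell factor receptor (0.88 ± 0.12). Cd34 differed by 0.05.

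The counts of this paragraph are to be read against 4.84% of all rows higher. Of 5 B cell genes 3 rose, the immunoglobulin heavy chain Ighm (0.98 ± 0.17) and, by smaller amounts, Cd79a and Cd79b. The calls of Cd79a and Cd79b were lost without AS1 replicate 1 and when the 2 compared groups were fitted alone. That of Cd79a was also lost without WT replicate 3, and that of Cd79b without WT replicate 1 or 2. Igkc, the kappa light chain, was one of the 15 largest rises and read 4.07, 4.59, 4.59 and 4.69 on the WT arrays and 7.97, 7.07 and 6.32 on the AS1 arrays. Its AS1 arrays were all high but spread over more than 1 log2 unit (2.64 ± 0.33, adjusted p = 2.99e-05). Of 7 T and NK cell genes only Cd4 passed, with 1.43 ± 0.20, and the T cell receptor complex genes Cd3e, Cd3g and Cd3d stayed at low AS1 means of 3.79, 3.77 and 3.89, where 40% of all rows had means under 4.10. None of the 7 endothelial genes passed. Of 6 erythroid genes 1 rose, the erythropoietin receptor Epor (0.48 ± 0.11), a call lost without AS1 replicate 3, and the globin rows Hbb-bs and Hbb-bt had AS1 means of 3.74 and 3.47. Of 8 osteoclast genes 2 rose (Mmp9 and Nfatc1), and of 8 stromal genes 2, Dcn and Col1a1, rose by under 0.5. Both stromal calls were lost with a block for the replicate number and when the 2 compared groups were fitted alone. That of Dcn was also lost without AS1 replicate 2. That of Col1a1 was also lost without WT replicate 1, 2 or 3 and without AS1 replicate 1 or 3.

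**Figure D3:**
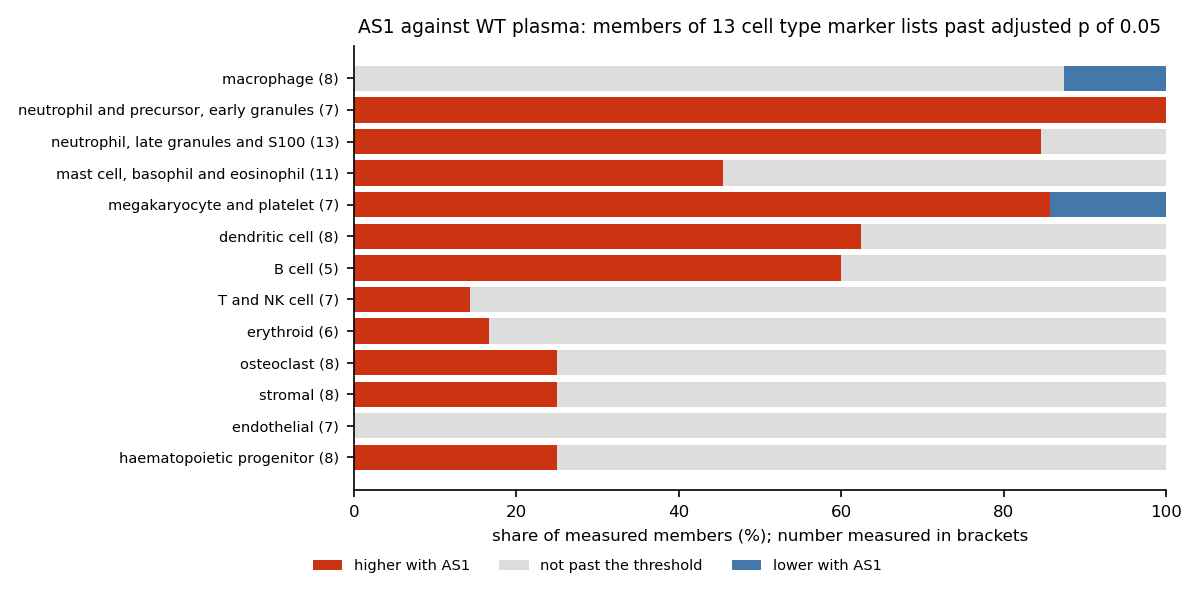
Share of the measured members of 13 cell type marker lists (horizontal axis, %) that were higher, lower or not past an adjusted p of 0.05 with AS1 against WT plasma, with the number measured in brackets. All 7 early and 11 of 13 late neutrophil genes were higher, 1 of 8 macrophage genes was lower, and no endothelial gene passed. Over all rows 4.84% were higher and 4.64% lower.

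Receptors and ligands that act on these myeloid lineages moved as well, against 4.84% of all rows higher and 4.64% lower. Of 15 colony-stimulating factor receptors and growth signals 7 rose and none fell, with Csf3r, the G-CSF receptor, at 1.06 ± 0.12, Csf1, M-CSF itself, at 0.88 ± 0.14 and Pim1, a kinase induced by cytokines, at 0.61 ± 0.09. The M-CSF receptor Csf1r differed by -0.04 ± 0.06 (adjusted p = 0.768). Of 15 interleukin-1 family genes 5 rose and none fell. Il1f9, which encodes IL-36γ, read 5.37, 4.60, 5.59 and 5.56 on the WT arrays and 8.08, 7.83 and 7.37 on the AS1 arrays, with all AS1 arrays above all WT arrays (2.48 ± 0.32, adjusted p = 4.62e-05, limma). Il1r2, the decoy receptor, rose by 0.76 ± 0.12 and Il18rap, a chain of the IL-18 receptor, by 1.15 ± 0.12. Il1b differed by 0.46 ± 0.20 (adjusted p = 0.203).

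Of 12 chemokine receptors 3 rose, Cxcr2, Ccr1 (1.32 ± 0.23) and Cxcr4 (0.58 ± 0.09), and 1 fell. Over all rows 4.84% were higher and 4.64% lower. The one that fell, Cx3cr1, the fractalkine receptor, differed by -0.84 ± 0.22 (adjusted p = 0.0233), and its call was lost without WT replicate 1, 3 or 4 and without AS1 replicate 1 or 3. Matrix proteases changed in both directions, 7 higher and 3 lower of 15, against the same shares over all rows. Mmp9, gelatinase B, which neutrophils store, rose by 2.15 ± 0.35, and Mmp25, a membrane-bound protease of leukocytes, by 0.98 ± 0.10. Mmp14, the membrane-bound collagenase, read 7.16, 6.96, 6.71 and 6.94 on the WT arrays and 5.41, 5.11 and 5.05 on the AS1 arrays. It was lower on every AS1 array, with -1.75 ± 0.13 (adjusted p = 1.13e-07).

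Among the genes named by size, Id3 and Cd300e had the largest falls. Id3, an inhibitor of basic helix-loop-helix factors, read 7.34, 7.32, 7.75 and 7.69 on the WT arrays and 4.88, 4.75 and 4.74 on the AS1 arrays, so that the AS1 arrays sat close together well under the WT arrays (-2.73 ± 0.15, adjusted p = 2.92e-09, limma). Cd300e, an activating receptor of monocytes, read 8.81, 8.44, 8.64 and 8.66 on the WT arrays and 5.80, 6.71 and 5.60 on the AS1 arrays. Its groups did not overlap, though AS1 replicate 2 was about 1 log2 unit above the other two (-2.60 ± 0.19, adjusted p = 7.56e-08). The Id3 means with ApoE and AS2 plasma were 5.34 and 4.64, and those of Cd300e were 4.94 and 4.86. Cbr2, a carbonyl reductase, fell by 2.05 ± 0.22, Fabp7, a fatty acid binding protein, by 1.90 ± 0.17 and Cav1, the coat protein of caveolae, by 1.69 ± 0.22. Procr, the protein C receptor, fell by 1.47 ± 0.11.

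C-type lectins and Toll-like receptors, both families that recognise microbes, had more members lower than higher. Of 15 C-type lectins 7 fell and 2 rose, against 4.64% of all rows lower and 4.84% higher. Clec4n, the fungal mannan receptor Dectin-2, read 9.50, 9.39, 9.38 and 9.50 on the WT arrays and 7.70, 7.92 and 7.88 on the AS1 arrays. The arrays of the groups were more than 1 log2 unit apart (-1.61 ± 0.08, adjusted p = 6.42e-10). Its neighbours in the same gene cluster, Clec4b1 and Clec4a2, fell by 1.25 ± 0.14 and 1.17 ± 0.17. The members that rose were Clec10a (0.76 ± 0.13), a galactose-binding lectin, and Clec5a (0.47 ± 0.10). Clec4n was at 8.14 with ApoE plasma and 5.88 with AS2 plasma (adjusted p = 0.00727 and 7.4e-11 against AS1).

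Of 16 Toll-like receptors and adaptors 5 fell and 1 rose. This and the other counts of the paragraph are to be read against 4.64% of all rows lower and 4.84% higher. Tlr6 and Tlr1, which pair with TLR2 to sense bacterial lipopeptides, differed by -0.95 ± 0.13 and -0.59 ± 0.08, while Tlr2 differed by 0.01 ± 0.12 (adjusted p = 0.976). Tlr13, which senses bacterial ribosomal RNA, differed by -0.90 ± 0.12 and the shared adaptor Myd88 by -0.69 ± 0.11. Tlr5, the flagellin receptor, was the one that rose (0.73 ± 0.19), a call lost without AS1 replicate 1 or 3. Of 19 NF-κB pathway and cytokine genes 5 fell and 2 rose (1 rose without AS1 replicate 1 or 3 or any of WT replicates 1 to 3). Those that fell included Nfkbia (-0.43 ± 0.06), Nfkbie (-1.14 ± 0.16) and Nfkbiz (-0.49 ± 0.08), which are themselves induced by NF-κB, and Il10 (-0.81 ± 0.11). Of 21 immediate early genes 5 fell, among them Fos (-0.73 ± 0.08), Egr1 (-1.11 ± 0.23) and Dusp1 (-0.75 ± 0.15), and 2 rose, a count that was 0 or 1 with any single array left out. The count of chemokine ligands lower, 4 of 20, moved to 1 or 2 without WT replicate 3 or any single AS1 array.

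Scavenger receptors for modified lipoproteins split, with 3 of 17 higher and 4 lower, against 4.84% of all rows higher and 4.64% lower. Msr1, scavenger receptor A, read 9.59, 9.66, 9.68 and 9.65 on the WT arrays and 8.11, 8.32 and 8.69 on the AS1 arrays. It was lower on all AS1 arrays (-1.27 ± 0.12, adjusted p = 1.36e-06, limma), and also lower than the means with ApoE (9.43) and AS2 plasma (9.17). Cxcl16, a chemokine that also binds oxidised LDL, fell by 0.49 ± 0.06 and Colec12, a collectin that does so, by 0.58 ± 0.12. Cd163, the haemoglobin-haptoglobin receptor, read 6.97, 6.93, 6.96 and 6.92 on the WT arrays and 8.04, 7.98 and 8.09 on the AS1 arrays. It was higher on all AS1 arrays (1.09 ± 0.12, adjusted p = 9.9e-06). Cd36, the receptor for oxidised LDL and fatty acids, differed by -0.28 ± 0.08 (adjusted p = 0.0252), and its call was lost without WT replicate 3 or 4 and without AS1 replicate 1 or 3. Marco, a class A receptor, read 9.22, 9.08, 9.23 and 9.10 on the WT arrays and 9.04, 9.62 and 7.44 on the AS1 arrays. Its AS1 arrays fell on both sides of the WT arrays (-0.46 ± 0.35, adjusted p = 0.539). Stab2 differed by 0.63 ± 0.17 (adjusted p = 0.027), a call lost without WT replicate 1, 3 or 4 and without AS1 replicate 1 or 3. The count of 3 higher became 1 without WT replicate 1 or 3 and without AS1 replicate 1 or 3.

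**Figure D4:**
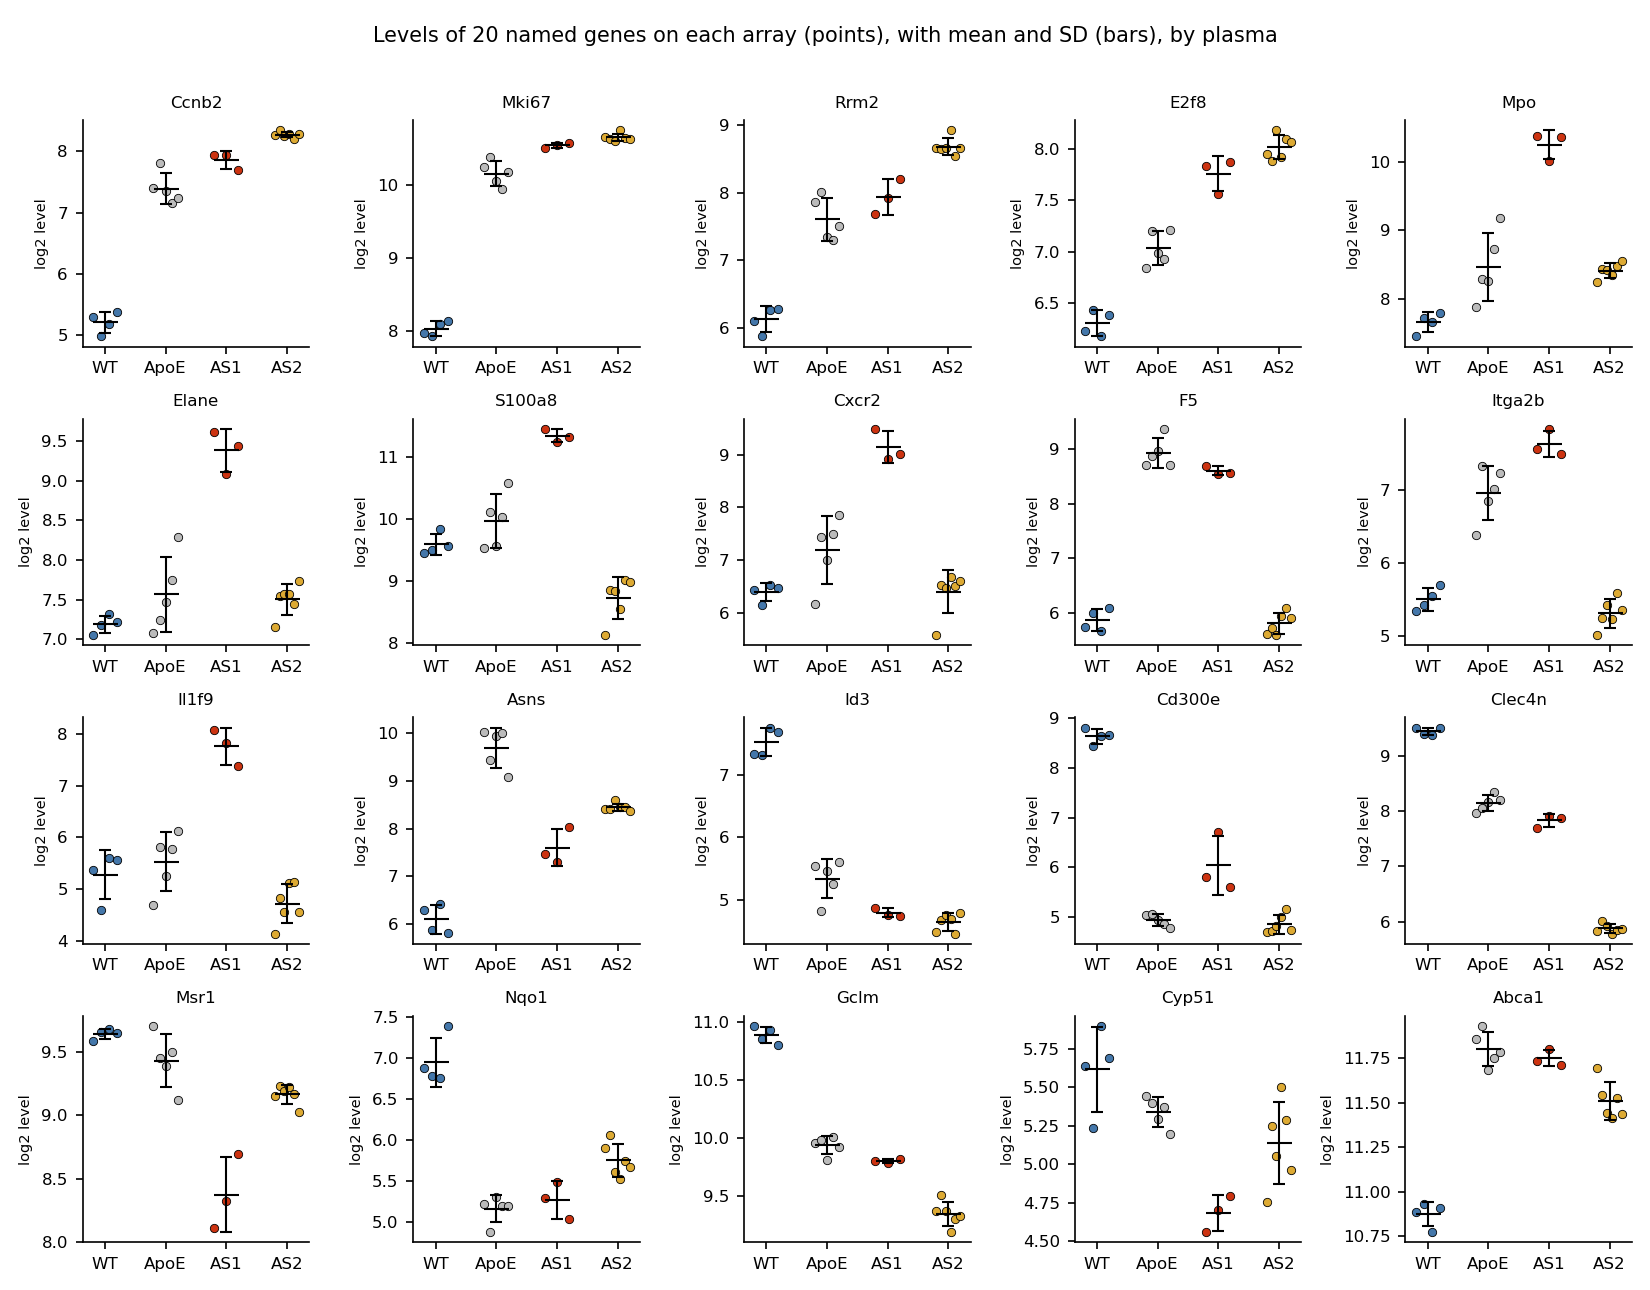
Log2 level (vertical axes) of 20 named genes on each array (points) by plasma (horizontal axes), with the mean and SD as bars; the axes do not start at 0. The 3 AS1 arrays lie above all WT arrays in the first 12 panels (Ccnb2 to Asns) and for Abca1, and below them from Id3 to Cyp51.

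Targets of NRF2, the factor that raises glutathione synthesis and detoxifying enzymes under oxidant or electrophile stress, were lower with AS1 plasma. Of 17 measured 9 fell and 1 rose, with a median of -0.46, against 4.64% of all rows lower. The mean level of the list was 9.35 to 9.38 on WT arrays, 8.84 to 8.91 on AS1 arrays and, for reference, 8.87 to 9.04 with ApoE plasma and 8.75 to 8.84 with AS2 plasma. Gclm, the modifier subunit of the enzyme that limits glutathione synthesis, read 10.96, 10.85, 10.93 and 10.80 on the WT arrays and 9.81, 9.78 and 9.82 on the AS1 arrays. The 3 AS1 arrays were nearly equal and far below WT (-1.08 ± 0.06, adjusted p = 5.75e-09, limma). Its catalytic partner Gclc fell by 1.15 ± 0.08 (adjusted p = 3.01e-08).

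Nqo1, a quinone reductase, read 6.88, 6.78, 6.76 and 7.39 on the WT arrays and 5.30, 5.49 and 5.04 on the AS1 arrays, with WT replicate 4 higher than the other WT arrays and no overlap between groups (-1.68 ± 0.16, adjusted p = 1.2e-06). Prdx1, a peroxiredoxin, differed by -1.32 ± 0.17 and Gsta3, a glutathione transferase, by -1.06 ± 0.08. Hmox1, which degrades heme, differed by -0.75 ± 0.08 and Srxn1, which restores peroxiredoxins, by -0.67 ± 0.09. The member that rose was Gsr, glutathione reductase, with 0.24 ± 0.05. Nfe2l2, which encodes NRF2, and its inhibitor Keap1 differed by 0.11 and 0.08 (adjusted p = 0.397 and 0.749).

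Slc7a11, the cystine importer that feeds glutathione synthesis, read 7.40, 7.30, 7.29 and 7.35 on the WT arrays and 5.69, 5.81 and 6.05 on the AS1 arrays. The groups were well apart (-1.48 ± 0.16, adjusted p = 8.04e-06), and its means were 7.10 with ApoE and 4.75 with AS2 plasma. Ptgr1, a reductase of prostaglandins and lipid aldehydes, read 8.05, 8.17, 8.12 and 8.15 on the WT arrays and 6.39, 6.58 and 6.54 on the AS1 arrays. It had the smallest adjusted p among the 15 largest falls, 6.07e-11, with a difference of -1.62 ± 0.06, and was lower than with ApoE plasma (7.31, adjusted p = 3.73e-07) or AS2 plasma (7.73, adjusted p = 2.75e-10). Me1, the cytosolic malic enzyme that supplies NADPH, fell by 1.51 ± 0.16. Slc7a11, Ptgr1 and Me1 are not on the NRF2 list counted above. Slc7a11 was counted with the amino acid transporters and Me1 with fatty acid synthesis.

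Some genes of cholesterol synthesis were lower with AS1 plasma, and a few of cholesterol efflux were higher. Of 20 synthesis genes 8 fell, 12 did not pass and none rose, against 4.64% of all rows lower, with a median of -0.31, and their mean level was 6.25 to 6.42 on WT arrays and 5.98 to 6.07 on AS1 arrays. The count was 5 without AS1 replicate 3. Cyp51, the sterol demethylase, read 5.64, 5.24, 5.90 and 5.69 on the WT arrays and 4.56, 4.70 and 4.79 on the AS1 arrays. The groups did not overlap (-0.93 ± 0.15, adjusted p = 0.00054, limma). Srebf2, the factor that switches this pathway on, differed by -0.66 ± 0.10, Sqle, squalene epoxidase, by -0.62 ± 0.14, Msmo1, a sterol oxidase, by -0.60 ± 0.11 and Hmgcs1, which makes HMG-CoA, by -0.49 ± 0.10.

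Of 13 LXR targets and efflux genes 4 rose, 1 fell and 8 did not pass, against 4.84% of all rows higher and 4.64% lower. Abca1, which exports cholesterol to apolipoprotein A-I, read 10.89, 10.93, 10.77 and 10.91 on the WT arrays and 11.74, 11.80 and 11.71 on the AS1 arrays. All AS1 arrays were higher (0.88 ± 0.07, adjusted p = 1.5e-07), and the ApoE mean was 11.80 (adjusted p = 0.732 against AS1). Abcg1, which exports it to HDL, rose by 1.03 ± 0.06, Mylip, the ligase that degrades the LDL receptor, by 0.58 ± 0.08 and Pltp, the phospholipid transfer protein, by 0.62 ± 0.08. Smpdl3a, a phosphodiesterase also induced by LXR, was the one that fell (-0.47 ± 0.06). Among lipid storage and breakdown genes 5 of 23 rose and 5 fell. Dgat1, which forms triglyceride, rose by 0.89 ± 0.13 and Lpl, lipoprotein lipase, fell by 0.46 ± 0.04. Of 15 genes of fatty acid synthesis and desaturation 2 rose and 1 fell. Scd2, a fatty acid desaturase, was 1 of those that rose (1.34 ± 0.19). The call of the other, Acsl4, was lost without WT replicate 3 or 4 and without AS1 replicate 1, 2 or 3. It was also lost when the 2 compared groups were fitted alone.

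Carbohydrate genes were lower at a few points. Gbe1, the branching enzyme of glycogen, read 8.30, 8.30, 8.28 and 8.25 on the WT arrays and 6.40, 6.65 and 6.49 on the AS1 arrays. The WT arrays were nearly equal, and the AS1 arrays lay more than 1 log2 unit below (-1.77 ± 0.09, adjusted p = 9.04e-10, limma). It was lower than with ApoE plasma (7.30) and AS2 plasma (7.31) too. Of 20 glycolysis and hypoxia genes 4 fell and 2 rose, against 4.64% of all rows lower and 4.84% higher. Slc2a1, the glucose transporter GLUT1, read 9.11, 9.06, 8.98 and 9.04 on the WT arrays and 8.10, 8.02 and 8.21 on the AS1 arrays, and the groups did not overlap (-0.94 ± 0.12, adjusted p = 3.17e-05). Vegfa, vascular endothelial growth factor, rose by 1.0 ± 0.11.

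Amino acid response genes rose in part. ATF4 is the factor that raises amino acid import, synthesis and tRNA charging when the supply falls. Of 19 genes of the ATF4 and CHOP stress response 3 rose and none fell, with a median of 0.03. Over all rows 4.84% were higher. Asns, asparagine synthetase, read 6.29, 5.87, 6.42 and 5.82 on the WT arrays and 7.47, 7.30 and 8.04 on the AS1 arrays, so that all AS1 arrays were above all WT arrays (1.50 ± 0.21, adjusted p = 0.000136, limma). Atf4 differed by 0.52 ± 0.11, and Ddit3, which encodes CHOP, by 0.35 ± 0.14 (adjusted p = 0.144). Slc7a5, the importer of large neutral amino acids, rose by 1.72 ± 0.22 and Mthfd2, of the mitochondrial folate cycle, by 1.72 ± 0.18. Slc7a11, described above and on the same transporter list as Slc7a5, went the other way (-1.48).

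Of 14 amino acid transporters 3 rose and 2 fell, of 9 serine and one-carbon genes 3 rose, of 20 chaperones and folding enzymes of the endoplasmic reticulum 2 rose and 1 fell, and of 19 aminoacyl-tRNA synthetases 5 rose, against 4.84% of all rows higher and 4.64% lower. The count of 5 synthetases was 3 without WT replicate 1 or AS1 replicate 3. With ApoE plasma these genes stood higher: 11 of the 19 ATF4 and CHOP genes, 17 of the 19 synthetases and 18 of the 20 chaperone genes were lower with AS1 than with ApoE, against 8.8% of all rows. Asns had an ApoE mean of 9.70 (adjusted p = 3.08e-06 against AS1) and an AS2 mean of 8.45 (adjusted p = 0.00419). Ddit3 had an ApoE mean of 8.27 and an AS1 mean of 6.76 (adjusted p = 1.37e-06).

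Rows for small nucleolar and Cajal body RNAs, which guide the chemical modification of ribosomal and spliceosomal RNA, were lower with AS1 plasma. Of 108 such rows 33 fell and 1 rose, against 4.64% of all rows lower and 4.84% higher, with a median of -0.44. All AS1 arrays lay below all WT arrays in 53 of them, against 9.38% of all rows. The mean level of these rows was 6.54 to 7.09 on WT arrays, 6.04 to 6.26 on AS1 arrays, 6.54 to 6.87 with ApoE plasma and 7.01 to 7.19 with AS2 plasma. WT replicate 4 stood above the other 3 WT arrays. Without it 23 rows fell and the median was -0.31, and without AS1 replicate 3 the count was 21. The largest fall was that of Snord12, -2.34 ± 0.48 (adjusted p = 0.004, limma), and Snora16a and Snord68 differed by -1.86 ± 0.40 and -1.77 ± 0.36. Against ApoE plasma, where 8.8% of all rows were lower with AS1, 47 of the 108 were lower and none higher. Against AS2 plasma, where 11.5% of all rows were lower, 70 were lower and 2 higher. Of 543 microRNA gene rows 4 rose and 9 fell, both smaller shares than the 4.84% higher and 4.64% lower over all rows, with a median of -0.001. Of the microRNA rows 1 rose without WT replicate 4 or AS1 replicate 3, 14 rose after a filter on low values, and 4 fell without AS1 replicate 1. These arrays were labelled by the maker's standard protocol, and how much of a mature small RNA or of its host transcript such rows read was not tested.

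Further lists are given by their counts, to be read against 4.84% of all rows higher and 4.64% lower. None of 14 genes of MHC class II presentation and costimulation rose and 2 fell, of 30 interferon-stimulated genes 3 rose and 3 fell, of 15 complement genes 1 rose, close to the share over all rows, of 8 Fc receptors 2 rose and 1 fell, and of 27 lysosomal genes 3 rose and 3 fell. Each of these 5 lists had a count that moved by more than 1.5 times with some single WT array, and with some single AS1 array, left out. Of 15 efferocytosis genes 5 rose, among them Mfge8, which bridges phagocytes to dying cells (0.66 ± 0.13), and 3 fell, a count of 5 that was 3 without AS1 replicate 3. Of 14 iron and heme handling genes 1 rose and 2 fell, and of 15 Id, Bhlhe and macrophage identity factors 4 rose and 3 fell. In each of these last lists the number that fell ran from 1 to 3 with 1 array left out. Of 15 alternative activation genes 3 rose, with Chil3, a chitinase-like protein, at 1.17 ± 0.19, while Arg1, arginase 1, differed by 0.16 ± 0.09 (adjusted p = 0.367).

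**Figure D5:**
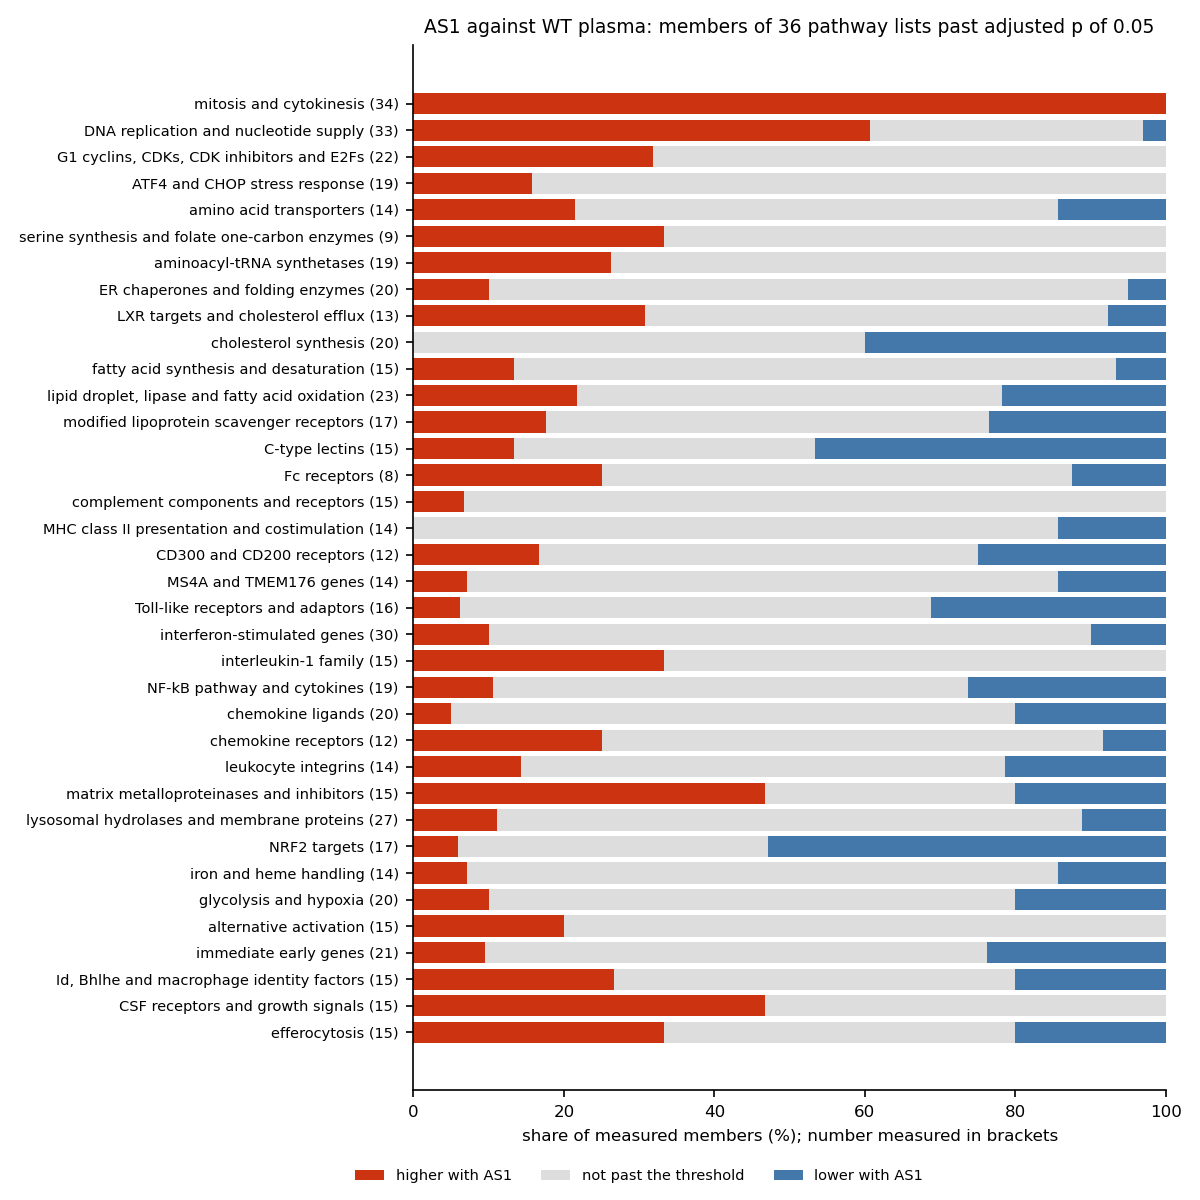
Share of the measured members of 36 pathway lists (horizontal axis, %) that were higher, lower or not past an adjusted p of 0.05 with AS1 against WT plasma, with the number measured in brackets. All 34 mitosis genes were higher, and the lists with the most members lower were NRF2 targets (9 of 17), C-type lectins (7 of 15) and cholesterol synthesis (8 of 20). Over all rows 4.84% were higher and 4.64% lower.

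Some genes past the threshold varied widely among the 3 AS1 arrays. The 5 with the largest SD there were Igkc, Cd55, Stfa2l1, Cpa3 and Cp. Cd55, which shields cells from complement, read 4.88, 4.54, 5.09 and 5.00 on the WT arrays and 5.88, 7.58 and 5.03 on the AS1 arrays, and AS1 replicate 3 lay among the WT arrays (1.29 ± 0.36, adjusted p = 0.0283, limma). Cp, ceruloplasmin, read 5.28, 5.37, 5.98 and 5.13 on the WT arrays and 6.59, 7.49 and 5.66 on the AS1 arrays, and its groups overlapped as well (1.14 ± 0.28, adjusted p = 0.0143). The call of Cd55 was lost without WT replicate 1 or 2 and without AS1 replicate 2, and that of Cp without AS1 replicate 1 or 2. Over all rows the median SD was 0.083 within AS1 and 0.095 within WT.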

How the data were processed

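Macrophage RNA was measured on 18 Affymetrix arrays, of which 7 (3 AS1, 4 WT) enter the comparison. The table that the authors deposited holds log2 levels made with RMA, per the submitters' processing notes, which give neither its version nor the probe definitions. ApoE replicate 1 held 24162 distinct values, against 7087 on every other array. Its sorted values differed from those of WT replicate 1 by at most 0.0019. The reason was not tested, and the array was kept in the fit. RMA equalises the arrays' distributions, so a change in total RNA cannot be seen, and the number of arrays limits the precision. Of 25428 rows, 24705 had 1 gene symbol, none had several and 723 were unnamed and left out.

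limma 3.58.1 in R 4.3.3 (lmFit, eBayes) was fitted to the 4 group means over all 18 arrays, with 14 residual degrees of freedom and no covariate. Benjamini-Hochberg adjustment ran over all 24705 rows, with a threshold of 0.05, two-sided. The fit was tested on simulated data.

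The comparison and its 36 pathway and 13 marker lists were chosen with earlier results of these data known; 710 of 749 list genes had a row. Genes were named by a rule: the 15 largest differences in each direction, up to 4 members by smallest p of lists with at least 3 called (2 of other lists), 10 fixed genes and the 5 largest SDs within AS1. The 34 other genes were picked after their values were seen. Alternatives were other row filters, normalizations, variance models, array weights, a replicate block and leaving out each array. Same-numbered WT and AS1 arrays did not deviate together (correlations of -0.03, -0.21 and -0.07), so the numbers were not taken as pairs.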

Additional observations from a re-analysis of the deposited data

Results flagged for a closer look

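In groups of 4 arrays, 1 array was set apart from the other 3 by more than Dixon's critical value for 13 of 227 named genes and 4 of 52 lists; chance alone sets apart about 1 in 20. The 3 AS1 arrays were too few for this check, so all of these are WT arrays. WT replicate 2 was lowest for Rnd3 (7.21), Msmo1 (8.06), Fcgr1 (10.67), Mfge8 (6.20) and Cd177 (6.39), and highest for Atp6v1b2 (11.34) and Stab2 (5.72). It was also lowest in the mean level of aminoacyl-tRNA synthetases (7.83) and of matrix metalloproteinases and inhibitors (6.86). WT replicate 1 was lowest for Igkc (4.07) and Cd36 (12.48) and highest for Aco1 (8.97). WT replicate 4 was lowest for Cd3g (3.76), highest for Cxcl16 (11.10) and Col1a1 (5.29), and highest in the mean level of the small nucleolar and Cajal body RNA rows (7.09) and of the Rnu and Rny rows (6.01).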

How the results depend on the processing

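The count of 2343 rows past the threshold ran from 1891 with the replicate block to 2794 with array weights, and from 1605 to 2543 with each of the 7 arrays left out in turn. The replicate numbers are not known to pair the samples. Under the replicate block the counts against ApoE and AS2 plasma were 3748 (4088 without it) and 4874 (5467 without it). The share of rows whose groups did not overlap was 18.1% in all, ran from 21.9% to 28.2% with 1 array left out, where fewer arrays are compared, and was 25.5% after a filter on low values. Of 190 named genes past the threshold, 171 kept the call in each of the 9 other settings in which they were tested and 164 with any 1 array left out, and none changed direction. Counts of 3 or fewer members in a list often changed under these settings. Of the arrays left out, AS1 replicate 3 gave the lowest count of rows and WT replicate 2 the highest. Signal over background is not held in the table, so rows with low values, where a log2 difference is understated, have no detection limit here.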

Other observations

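CD300 and CD200 receptors, which include activating and inhibitory members, held genes that moved in opposite directions with AS1 plasma. Of 12 measured 2 rose and 3 fell, against 4.84% of all rows higher and 4.64% lower: Cd300lf, an inhibitory receptor for lipids, differed by 0.93 ± 0.12 and Cd300c by 0.77 ± 0.11, while Cd300lb differed by -0.51 ± 0.05. Of 14 MS4A and TMEM176 genes, which encode membrane proteins, 2 fell, against 4.64% of all rows. Of the same genes 1 rose, close to the 4.84% over all rows. The gene that rose was Ms4a3 (1.48 ± 0.16), a gene of granulocyte and monocyte precursors that is also on the early neutrophil list, and Ms4a6d and Ms4a7, of mature macrophages, differed by -0.51 ± 0.07 and -0.28 ± 0.06. The count of 2 was 4 without AS1 replicate 2.

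Of 14 leukocyte integrins 2 rose, Itgb3 and Itga2 (0.99 ± 0.11), the collagen-binding chain of platelets, and 3 fell, among them Itga5, the fibronectin-binding chain (-0.40 ± 0.08), and Itgb5 (-0.36 ± 0.06). Over all rows 4.84% were higher and 4.64% lower. The cathepsins Ctsl and Ctss, lysosomal proteases, fell by 0.37 ± 0.08 and 0.31 ± 0.05, and Atp6v0d2, a subunit of the proton pump, rose by 0.89 ± 0.07. Among basic helix-loop-helix factors Bhlhe40 read 5.87, 6.78, 5.93 and 6.29 on the WT arrays and 7.24, 7.33 and 7.39 on the AS1 arrays. All AS1 arrays were above all WT arrays (1.10 ± 0.18, adjusted p = 0.000572, limma), opposite to the direction of Id3.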
